A study of Mus musculus with 48 samples.

Results

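The mixture effect described here is the mean of 4 differences between exposed and vehicle livers, 1 each for males and females on a high-fat diet (HFD) and on a low-fat diet (LFD). All 48 libraries of the series entered a single model with a mean for each of 8 groups, and each of the 4 strata of sex and diet carried equal weight. Differences were taken on log2(TPM + 1), where TPM is a share of the transcripts of a library corrected for gene length. Of 15820 genes tested, 15 were called for the average (0.0948%), meaning that their limma p-value, adjusted by the Benjamini-Hochberg method over all genes tested, was under 0.05. Of the 15 called genes, 13 were higher in exposed livers in all 4 strata. Without regard to any test, 2774 genes had the same sign of change in all 4 strata.

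Liver poly(A) RNA was sequenced from mice of the inbred strain C57BL/6J. Exposed animals were dosed each week with TCDD at 10 ng/kg, PeCDF at 80 ng/kg (a dibenzofuran with several chlorines) and PCB126 at 140 ng/kg (a polychlorinated biphenyl), and vehicle animals with the carrier, until the end of the study at 12 weeks. The groups were male HFD mixture and male HFD vehicle, male LFD mixture and male LFD vehicle, female HFD mixture and female HFD vehicle, and female LFD mixture and female LFD vehicle, with 6 libraries in each. The compounds were given together, so their separate effects cannot be told apart, and the labels give neither age nor batch.

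TCDD, PeCDF and PCB126 are ligands of AhR, the aryl hydrocarbon receptor, which waits in the cytoplasm with chaperones of the Hsp90 family. Bound to a ligand, it enters the nucleus, pairs with Arnt and binds a short DNA motif, the dioxin response element, near genes for xenobiotic metabolism. In liver its best known targets are Cyp1a1 and Cyp1a2, cytochrome P450 enzymes that oxidise planar aromatic compounds, and the Cyp1 genes are the usual readout of dioxin-like activity.

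Per library, 13180 to 14713 genes reached 1 TPM, and sequencing depth is unknown because TPM does not keep it. Hepatocyte markers were abundant throughout, with a summed level of 10 genes between 68330 and 144492 TPM in exposed livers and between 84022 and 159787 TPM in vehicle livers. Skeletal muscle transcripts stood apart in 5 libraries. The summed level of 15 muscle genes was 25590 TPM in male HFD mixture replicate 6 and 2029 TPM in female LFD mixture replicate 3, against 9679 TPM in female LFD vehicle replicate 3, and the median library was at 48.6 TPM among exposed and 50.2 TPM among vehicle livers. The same female LFD mixture library held 1836 TPM of adrenal cortex genes. In male LFD vehicle livers, replicates 4 and 5 held 824 and 388 TPM of muscle genes, where the other 4 libraries of that group were at 27.7 to 34.4 TPM. Without the 3 highest libraries 19 genes were called, among them 14 of the 15. Without all 5, a setting added after the data were seen, 11 genes were called, among them 9 of the 15.

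All 15 called genes were higher in exposed livers (0.0948% of genes tested) and no gene was lower (0%). At an unadjusted p under 0.05, 9.34% of genes were higher and 2.36% were lower. The called genes fall into enzymes that oxidise or conjugate foreign compounds (Cyp1a1, Cyp1a2, Ugt1a9, Sult2a2, and the electron carrier Cyb5a), genes known to respond to dioxins in mouse liver with other roles (Htatip2, Slc46a3), and 8 other genes. Members of the first 2 groups had the smallest adjusted p-values, Sult2a2 apart. Where a value is lower or higher in bulk liver, a change in the number of cells that express a gene and a change in RNA per cell cannot be told apart.

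Cyp1a2 was the called gene with the smallest adjusted p. In male LFD livers its lowest, median and highest levels were 2585, 3103 and 4006 TPM with the mixture and 549, 657 and 774 TPM with vehicle. In male HFD livers they were 1354, 1567 and 2081 TPM with the mixture and 230, 336 and 422 TPM with vehicle. In female LFD livers they were 1856, 2375 and 2639 TPM with the mixture and 262, 308 and 415 TPM with vehicle. Every exposed library thus lay above every vehicle library of its stratum, as it did in female HFD livers, at 2270 to 2833 TPM with the mixture and 363 to 480 TPM with vehicle. The average log2 change was 2.51 with an SE of 0.06 (limma, adjusted p = 3.94e-31). Its strata gave log2 changes of 2.32 in male HFD, 2.24 in male LFD, 2.63 in female HFD and 2.85 in female LFD livers. The male minus female difference of effects was -0.46 with an SE of 0.13 and was not called (limma, unadjusted p = 0.00089, adjusted p = 0.82).

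Cyp1a1 had the largest average log2 change of the 15, 3.31 with an SE of 0.10 (limma, adjusted p = 5.20e-28), but its strata differed by diet. In male HFD livers its lowest, median and highest levels were 2.22, 3.78 and 8.59 TPM with the mixture and 0.534, 0.864 and 1.14 TPM with vehicle. In female HFD livers they were 2.24, 2.92 and 4.73 TPM with the mixture and 0.534, 0.841 and 1.31 TPM with vehicle. In LFD livers the exposed levels were far higher. They ran over 86.1, 137 and 195 TPM with the mixture and 1.19, 1.83 and 2.17 TPM with vehicle in males, and over 62.0, 88.4 and 108 TPM with the mixture and 1.08, 1.72 and 2.42 TPM with vehicle in females. The groups did not overlap in any stratum. The log2 change was 1.52 in male HFD and 1.18 in female HFD livers, against 5.60 in male LFD and 4.93 in female LFD livers, so for this gene the average stands for no single stratum. Levels near 1 TPM are compressed by the added 1, and the ratio of group means was 5.51 in male HFD, 79.99 in male LFD, 3.81 in female HFD and 47.4 in female LFD livers.

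**Figure D1:**
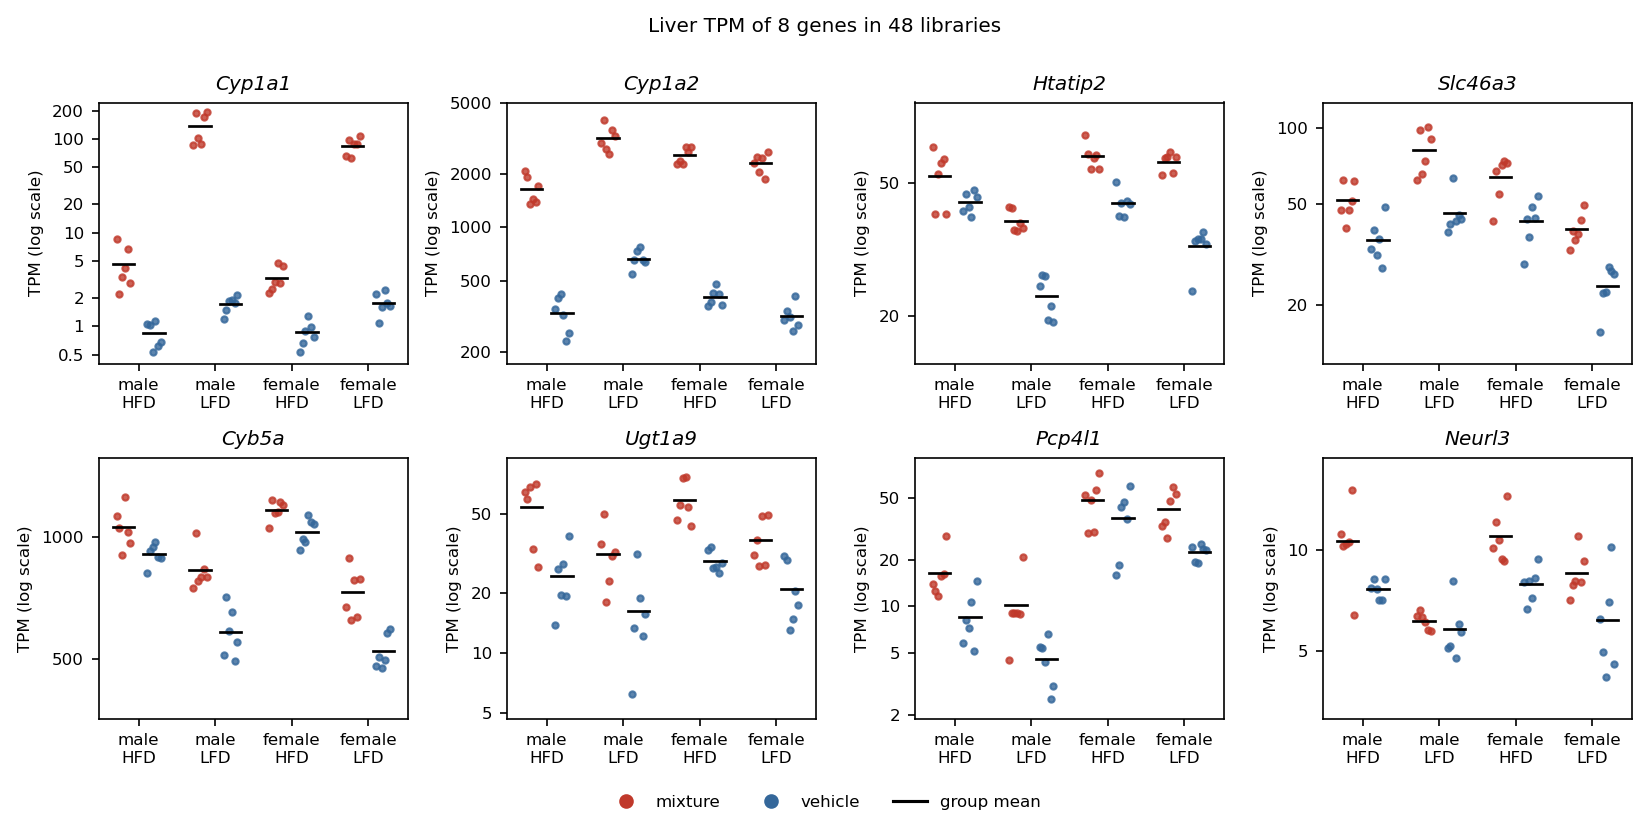
TPM on a log axis in each of 48 libraries for 8 called genes, with 6 mixture libraries (red) left of 6 vehicle libraries (blue) in each stratum and a black line at each group mean. Red and blue points are fully apart in all 4 strata for Cyp1a1 and Cyp1a2, while Cyp1a1 reaches no more than 8.59 TPM in exposed male HFD livers and 195 TPM in exposed male LFD livers.

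Cyp1a1 (chr9:57687928-57703824, plus strand) and Cyp1a2 (chr9:57676937-57683703, minus strand) are neighbours that point away from each other on GRCm38, and Htatip2 (chr7:49759115-49773975) and Slc46a3 (chr5:147878437-147894815) were the next called genes by p. Their RefSeq promoters on build GRCm38.p6, from 250 bases before to 50 bases after a transcript start, are printed to show whether genes that rose together share the AhR core motif close to their starts. Capitals mark GCGTG, the core of the dioxin response element, or TGACNNNGC, a core of the antioxidant response element that Nrf2 binds, each searched on both strands. The windows are chr9:57697363-57697662 on the plus strand for Cyp1a1, chr9:57683606-57683905 on the minus strand for Cyp1a2, chr7:49758856-49759155 on the plus strand for Htatip2 and chr5:147894766-147895065 on the minus strand for Slc46a3.
Cyp1a1: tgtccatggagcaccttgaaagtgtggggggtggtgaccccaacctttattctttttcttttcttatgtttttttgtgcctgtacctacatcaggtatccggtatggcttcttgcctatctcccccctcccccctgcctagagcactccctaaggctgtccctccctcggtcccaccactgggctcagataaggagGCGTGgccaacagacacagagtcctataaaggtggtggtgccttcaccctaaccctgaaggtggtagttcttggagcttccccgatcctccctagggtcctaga
Cyp1a2: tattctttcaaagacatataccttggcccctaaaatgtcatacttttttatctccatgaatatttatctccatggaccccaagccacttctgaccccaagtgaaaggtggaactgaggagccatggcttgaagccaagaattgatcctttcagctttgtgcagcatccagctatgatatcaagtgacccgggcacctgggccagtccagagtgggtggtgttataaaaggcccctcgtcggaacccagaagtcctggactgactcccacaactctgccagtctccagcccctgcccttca
Htatip2: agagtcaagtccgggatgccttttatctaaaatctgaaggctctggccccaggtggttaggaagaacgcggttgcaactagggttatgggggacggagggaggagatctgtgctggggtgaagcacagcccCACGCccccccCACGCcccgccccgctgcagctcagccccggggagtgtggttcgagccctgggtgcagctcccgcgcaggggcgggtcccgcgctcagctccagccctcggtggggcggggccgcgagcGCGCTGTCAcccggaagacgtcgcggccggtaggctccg
Slc46a3: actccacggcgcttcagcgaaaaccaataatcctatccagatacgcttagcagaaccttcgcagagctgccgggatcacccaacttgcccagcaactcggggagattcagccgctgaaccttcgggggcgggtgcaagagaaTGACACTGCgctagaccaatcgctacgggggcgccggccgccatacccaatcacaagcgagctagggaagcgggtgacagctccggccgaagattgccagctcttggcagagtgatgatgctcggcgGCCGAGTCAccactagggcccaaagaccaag
In the Cyp1a1 window GCGTG begins at base -54 from the start, and the Cyp1a2 window holds neither motif. In the Htatip2 window GCGTG is found at bases -119 and -108 on the opposite strand and TGACNNNGC at base 12, and the Slc46a3 window holds TGACNNNGC at bases -108 and 20 and no GCGTG. Htatip2 has another listed start, with the window chr7:49759262-49759561, which holds TGACNNNGC at base -49 and no GCGTG. The core is common, being present in 32.4% of 32851 mouse promoters of this length and in 47.9% of the 13371 belonging to tested genes. RefSeq gave 13 promoters for 12 of the called genes, and 6 of the 13 held GCGTG. The longer form TNGCGTG was in 5.07% of all promoters and in 0 of the 13, and TGACNNNGC was in 12.4% and in 3 of the 13. The enhancers through which AhR is known to act on Cyp1a1 lie further upstream than this window, so these matches describe the letters near the start and no more.

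Htatip2, an oxidoreductase also known as TIP30, was higher in exposed livers by an average log2 change of 0.57 with an SE of 0.05 (limma, adjusted p = 2.32e-11). In female LFD livers its lowest, median and highest levels were 52.8, 59.5 and 61.9 TPM with the mixture and 23.8, 33.7 and 35.7 TPM with vehicle. In male LFD livers they were 36.0, 37.3 and 42.3 TPM with the mixture and 19.1, 23.0 and 26.5 TPM with vehicle. Female HFD livers were also fully apart, at 54.9 to 69.8 TPM with the mixture and 39.6 to 50.5 TPM with vehicle. Only male HFD livers overlapped, at 40.3 to 64.0 TPM with the mixture and 39.6 to 47.6 TPM with vehicle, and 4 of the 6 exposed libraries there lay above all vehicle libraries. Htatip2 was the 1 gene whose groups were fully apart in exactly 3 strata.

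Slc46a3, which encodes a transporter of the lysosomal membrane, was higher by an average log2 change of 0.66 with an SE of 0.08 (limma, adjusted p = 2.87e-07). The strata gave 0.51 in male HFD, 0.81 in male LFD, 0.57 in female HFD and 0.74 in female LFD livers. On log2(TPM + 1), all 24 exposed libraries lay above the mean of the vehicle libraries of their stratum. In female LFD livers the groups were apart, with 33.1, 38.7 and 49.5 TPM as lowest, median and highest with the mixture and 15.7, 24.6 and 28.3 TPM with vehicle. In the other strata some libraries overlapped, as in male HFD livers with 40.4 to 62.5 TPM with the mixture and 28.1 to 48.8 TPM with vehicle.

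Cyb5a, cytochrome b5, passes electrons to several P450 enzymes and fatty acid desaturases and is abundant in liver. Its average log2 change was 0.34 with an SE of 0.04 (limma, adjusted p = 2.08e-06). Group means with SD were 1053 ± 123 TPM with the mixture and 905 ± 54.3 TPM with vehicle in male HFD livers and 1164 ± 65.3 TPM with the mixture and 1029 ± 77.8 TPM with vehicle in female HFD livers (n = 6 each), and these groups overlapped. In LFD livers the groups did not overlap, with means of 828 ± 97.8 TPM with the mixture and 585 ± 84.2 TPM with vehicle in males and 732 ± 104 TPM with the mixture and 523 ± 51.6 TPM with vehicle in females (n = 6 each). The log2 changes were 0.21 in male HFD and 0.18 in female HFD livers, against 0.50 in male LFD and 0.48 in female LFD livers.

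Ugt1a9 encodes a UDP-glucuronosyltransferase, an enzyme that attaches glucuronic acid to phenols and drugs. It was higher by an average log2 change of 0.96 with an SE of 0.13 (limma, adjusted p = 1.79e-05), with 1.10 in male HFD, 0.98 in male LFD, 0.96 in female HFD and 0.81 in female LFD livers. In female HFD livers its lowest, median and highest levels were 43.7, 54.5 and 76.5 TPM with the mixture and 25.4, 27.7 and 34.3 TPM with vehicle, with no overlap. In male LFD livers they were 18.0, 31.4 and 50.1 TPM with the mixture and 6.27, 14.5 and 31.4 TPM with vehicle, and the groups overlapped there. All 24 exposed libraries lay above their vehicle mean. The Ugt1a genes of chromosome 1 share their last exons, so how reads were divided among Ugt1a9 and its neighbours is uncertain. Of those neighbours Ugt1a1, the most abundant at 211 TPM with the mixture and 210 TPM with vehicle, had an average log2 change of 0.03, and Ugt1a5 had -0.28, neither called.

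Pcp4l1, a small protein with a calmodulin-binding motif, had an average log2 change of 0.78 with an SE of 0.14 (limma, adjusted p = 0.00364). Its level was lower in males in both exposure groups, with means of 10.3 ± 5.57 TPM with the mixture and 4.56 ± 1.55 TPM with vehicle in male LFD livers, and of 42.8 ± 12.5 TPM with the mixture and 22.5 ± 2.58 TPM with vehicle in female LFD livers (SD, n = 6 each). The log2 change was 0.87 in male HFD, 0.95 in male LFD, 0.45 in female HFD and 0.86 in female LFD livers. Groups were apart in female LFD livers, and in female HFD livers only 1 exposed library lay above all vehicle libraries. Neurl3, an E3 ubiquitin ligase of the neuralized family, had an average log2 change of 0.34 with an SE of 0.07 (limma, adjusted p = 0.0224). Its strata gave 0.39 in male HFD, 0.42 in female HFD and 0.45 in female LFD livers but 0.09 in male LFD livers, where means were 6.14 ± 0.342 TPM with the mixture and 5.80 ± 1.20 TPM with vehicle (SD, n = 6 each).

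**Figure D2:**
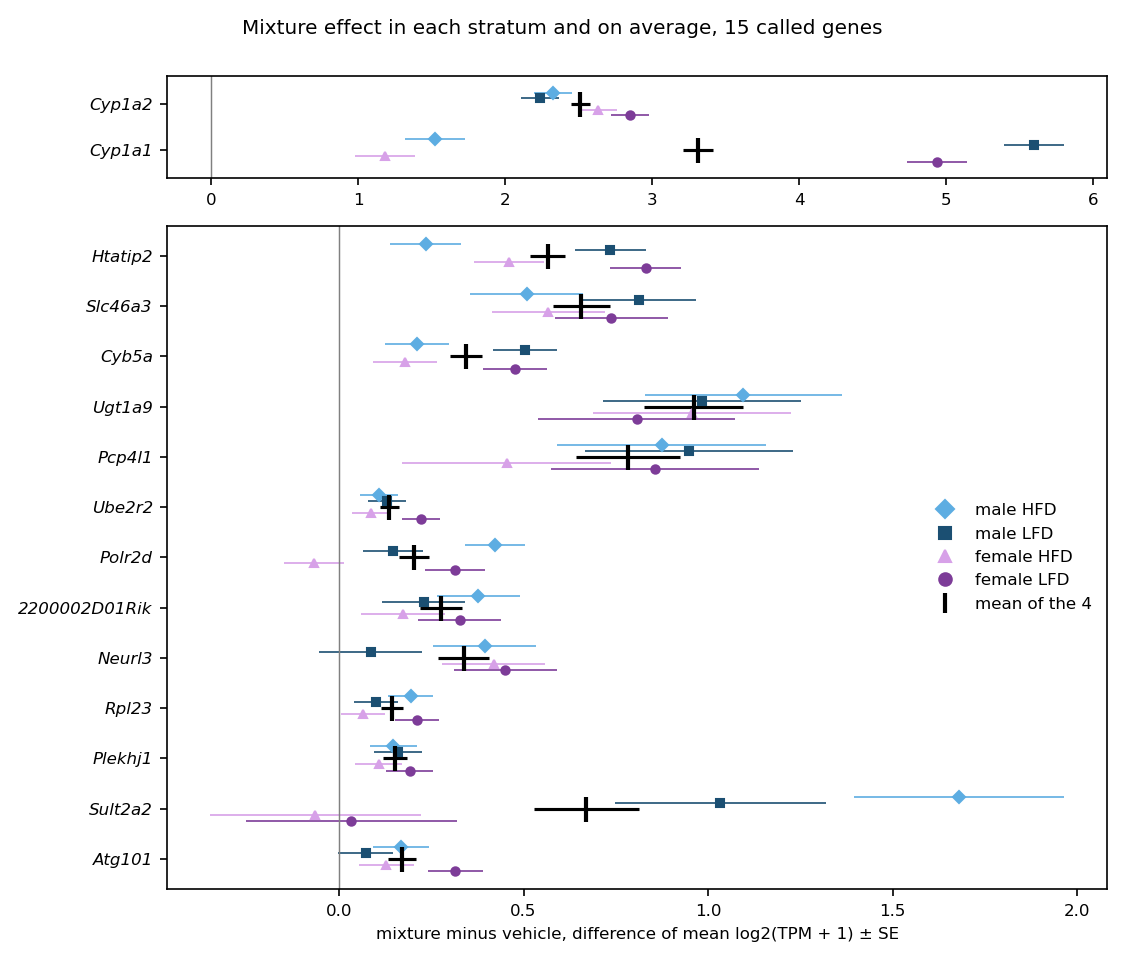
Log2 change, mixture minus vehicle, with its SE for the 15 called genes in each stratum (symbols) and averaged over the 4 (black bar), with Cyp1a1 and Cyp1a2 on an axis of their own. Polr2d and Sult2a2 are the genes with a stratum below 0, at -0.07 and -0.06 in female HFD livers.

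The other called genes changed by little or in a subset of strata. Ube2r2, an E2 ubiquitin-conjugating enzyme, had an average log2 change of 0.14 with an SE of 0.03 (limma, adjusted p = 0.0053), with all 24 exposed libraries above their vehicle mean and group means of 67.4 ± 5.52 TPM with the mixture and 57.5 ± 3.05 TPM with vehicle in female LFD livers (SD, n = 6 each). Plekhj1, a pleckstrin homology domain protein, had an average of 0.15, and Atg101, which acts at the start of autophagy, 0.17. The uncharacterised gene 2200002D01Rik averaged 0.28, Rpl23, a protein of the large ribosomal subunit, 0.14, and Polr2d, a subunit of RNA polymerase II, 0.20. Their adjusted p-values lay between 0.0152 for Polr2d and 0.0447 for Atg101. Polr2d was fully apart in male HFD livers, at 22.2 to 26.9 TPM with the mixture and 16.0 to 20.2 TPM with vehicle, and lower in exposed female HFD livers, at 17.6 ± 1.79 TPM with the mixture and 18.5 ± 1.48 TPM with vehicle (SD, n = 6 each). Just inside the threshold stood Sult2a2 and Atg101, and just outside it Rpl24 with an adjusted p of 0.0583 and Zfp688 with 0.0702. With a trimmed-mean scaling of the libraries 8 genes were called, and Ube2r2, Polr2d, 2200002D01Rik, Rpl23, Plekhj1, Sult2a2 and Atg101 were not among them, with adjusted p-values between 0.0711 for Sult2a2 and 0.266 for Rpl23. The same genes apart from Ube2r2 also lost the call without the 5 libraries holding muscle transcripts, with adjusted p-values between 0.0669 for 2200002D01Rik and 0.0923 for Rpl23.

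Sult2a2 is a sulfotransferase of hydroxysteroids and bile acids that is female-biased in mouse liver. It was called for the average although its log2 change in females was small. The call was kept under 4 of 10 other settings that used all 4 strata. By stratum Sult2a2 was called in male HFD livers (limma, adjusted p = 0.0028) and not in male LFD livers (adjusted p = 0.457). In male HFD livers its lowest, median and highest levels were 1.83, 12.0 and 14.7 TPM with the mixture and 0.914, 1.83 and 3.18 TPM with vehicle. In male LFD livers they were 2.30, 4.95 and 6.14 TPM with the mixture and 0.592, 1.54 and 3.43 TPM with vehicle. Female levels were far higher than male levels in both exposure groups, with means of 1265 ± 102 TPM with the mixture and 1327 ± 168 TPM with vehicle on the HFD (SD, n = 6 each). The log2 change was 1.68 in male HFD and 1.03 in male LFD livers, against -0.06 in female HFD and 0.03 in female LFD livers. The male minus female difference of effects was 1.37 with an SE of 0.29 and was not called (limma, unadjusted p = 1.9e-05, adjusted p = 0.15). Over all libraries the mean level was 436 TPM with the mixture and 444 TPM with vehicle, so the sign of the averaged log2 change is that of the males. Its paralogue Sult2a1 had the same pattern, with 1.51, 1.14, -0.16 and -0.18 in male HFD, male LFD, female HFD and female LFD livers and an average of 0.58 that was not called (adjusted p = 0.125). Group means of Sult2a1 ran from 3.31 to 856 TPM with the mixture and from 1.02 to 962 TPM with vehicle. The Sult2a genes are near-identical copies, and reads may have been divided between them in ways that are not given here.

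Movement in the same direction in all strata was common without a call, and the share expected without any effect was not computed. Such movement was found upward for 2012 genes (12.7% of genes tested) and downward for 762 genes (4.82%). This imbalance moved with the scaling of the libraries. After trimmed-mean scaling 1208 genes (7.64%) were higher and 1340 (8.47%) lower in all 4 strata, and at an unadjusted p under 0.05 the counts were 697 higher and 924 lower, against 1477 higher and 373 lower without it. The median average change over all genes was 0.02 without this scaling and 0.00 with it. Among the 15 called genes the number higher in all 4 strata was 13 with and without the scaling.

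**Figure D3:**
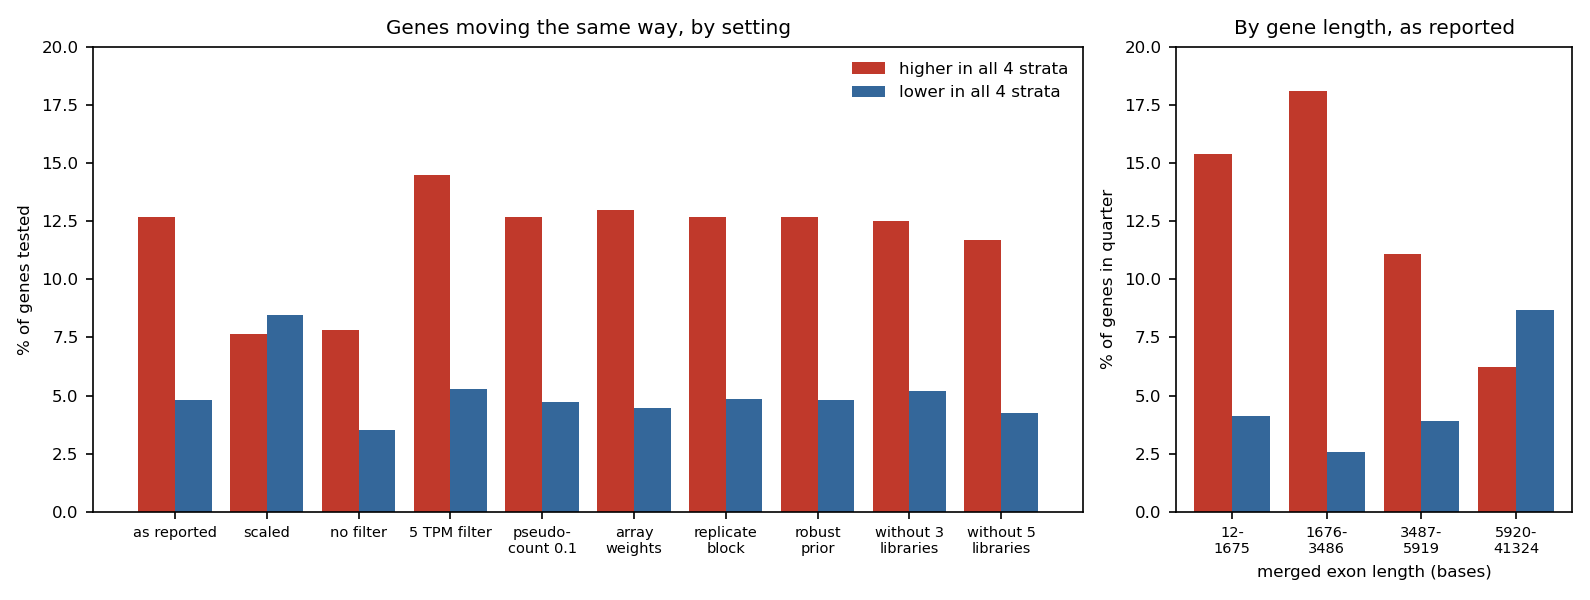
Left, percent of genes tested that were higher (red) or lower (blue) in exposed livers in all 4 strata, as reported and under 9 other settings, where the scaled library values give 7.64% higher and 8.47% lower. Right, the same shares by quartile of merged exon length, with 15.4% higher in the shortest quartile and 6.24% in the longest.

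The imbalance also moved with gene length. Genes higher in all 4 strata made up 15.4% of the quartile with the shortest merged exons, 18.1% and 11.1% of the next ones and 6.24% of the longest quartile, and genes lower in all 4 made up 4.13%, 2.56%, 3.90% and 8.67%. Of the 15 called genes, 14 lay in the 2 shorter quartiles. Cytosolic ribosomal protein genes had a median merged exon length of 1805 bases, within the quartile of 1676 to 3486 bases. They were higher in all 4 strata for 68 of 76, with a median average change of 0.10 and 1 call, Rpl23. After trimmed-mean scaling this count was 42 of 76, with a median of 0.08. That list was drawn up after its values had been seen. The summed level of these genes was 19709 ± 1332 TPM with the mixture and 18028 ± 1248 TPM with vehicle in male HFD livers, and 20215 ± 1633 TPM with the mixture and 19695 ± 2913 TPM with vehicle in female HFD livers (SD, n = 6 each). The part of library composition in the small changes of Rpl23, Ube2r2, Plekhj1 and Atg101 was not tested.

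A stricter reading asks for a difference in every stratum, each by its own limma test. By this test, which takes the largest of the 4 p-values, Cyp1a2 (adjusted p = 6.51e-17) and Cyp1a1 (adjusted p = 0.00625) were called, or 0.0126% of genes. Slc46a3, Ugt1a9, Htatip2 and Cyb5a were the only others at an unadjusted p under 0.05, with 0.00184, 0.00429, 0.0185 and 0.0457. By rank, Cyp1a1 and Cyp1a2 were also the 2 genes (0.0126%) whose exposed libraries all lay above all vehicle libraries in each stratum, and no gene lay below in more than 1 stratum. Across the other 15818 genes, log2 changes in any pair of strata, which share no libraries, correlated weakly, with Pearson's r between -0.08 and 0.16, a description over genes that are not independent replicates. Pairs of strata had the same sign in 45.8% to 58.0% of genes.

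Within each diet the same 2 genes led. On the HFD 6 genes were called (0.0379%), of which Cyp1a1, Cyp1a2, Htatip2, Slc46a3 and Ugt1a9 were called for the average. On the LFD 13 genes were called (0.0822%), of which 7 were called for the average: Cyp1a1, Cyp1a2, Htatip2, Slc46a3, Cyb5a, Ugt1a9 and Ube2r2. Htatip2 gave 0.35 on the HFD and 0.78 on the LFD, and Cyb5a gave 0.20 on the HFD, where it was not called (adjusted p = 0.377), and 0.49 on the LFD. The difference between diets itself was called for 1 gene (0.00632%). This was Cyp1a1, with an HFD minus LFD difference of log2 changes of -3.91 and an SE of 0.20 (limma, adjusted p = 1.65e-18). The HFD minus LFD difference of Htatip2 was -0.44 (adjusted p = 0.361) and that of Cyb5a was -0.30 (adjusted p = 0.476), so neither effect was shown to differ by diet, and that of Cyp1a2 was -0.06 with an SE of 0.13. By limma no gene was called for a difference between males and females (0%), with 735 genes at an unadjusted p under 0.05, and other settings called up to 2. For any difference among the 4 strata 1 gene was called (0.00632%), again Cyp1a1. The animal numbers in the library names restart with each diet, and diet and a possible cohort cannot be told apart.

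**Figure D4:**
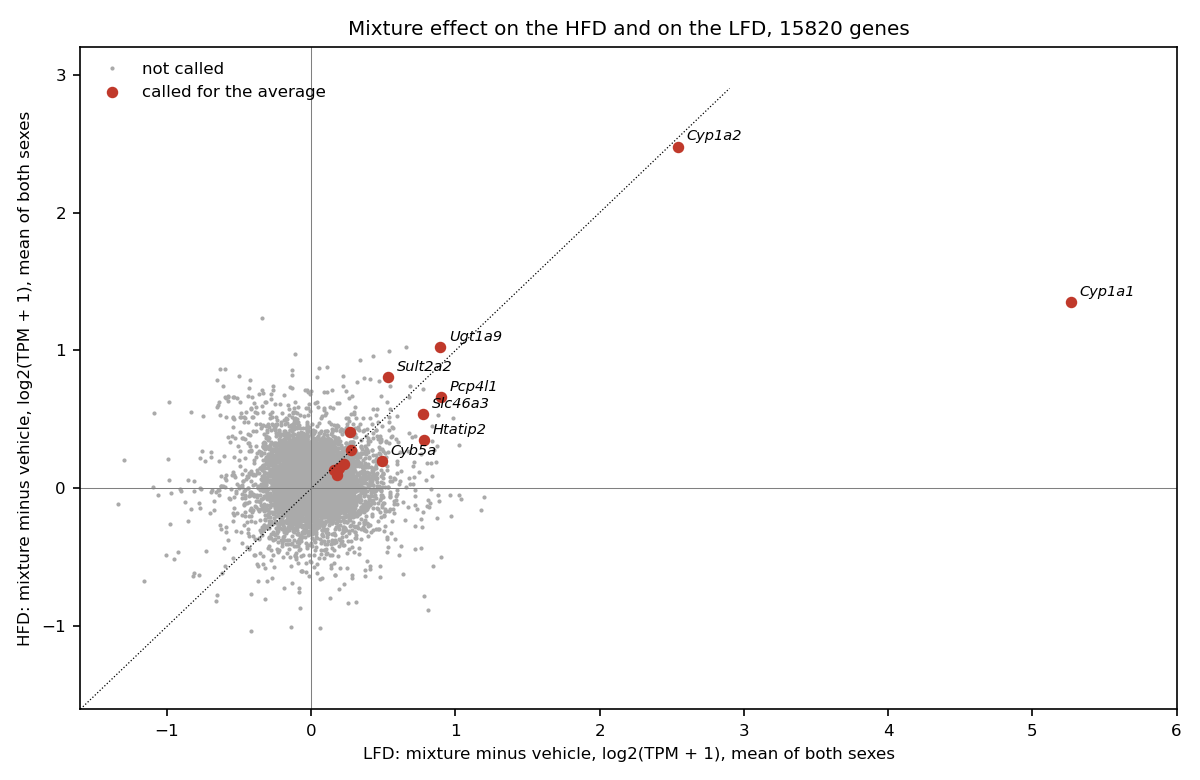
Log2 change with the mixture on the HFD (vertical) against that on the LFD (horizontal), each averaged over both sexes, for 15820 genes, with the 15 called genes in red and a dotted line where both diets are equal. Cyp1a2 lies near the line, and Cyp1a1 lies far to its right at 1.35 on the HFD and 5.27 on the LFD.

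In the AhR gene battery, the classic set of direct targets, no gene outside the Cyp1a pair was called. Of 12 listed genes 9 were tested, with Aldh3a1, Ahrr and Cyp2s1 too low, and 2 were called, against 0.0948% of all genes tested. The median average change was 0.16, against 0.02 for all genes. At an unadjusted p under 0.05, 4 of the 9 were higher, against 9.34% of all genes tested. Nqo1, a quinone reductase shared by AhR and Nrf2, averaged 0.25 (adjusted p = 0.158) and was higher in all 4 strata, with group means of 8.43 ± 2.64 TPM with the mixture and 5.71 ± 0.892 TPM with vehicle in male LFD livers (SD, n = 6 each) and overlap in each stratum. Cyp1b1, a P450 of extrahepatic tissues, averaged 0.16 at levels close to 1 TPM and was not called. Ugt1a6a averaged 0.12 and Ugt1a6b -0.10, and Tiparp, which encodes an enzyme that represses AhR, had an average of -0.0024 with strata between -0.26 and 0.31. The glutathione transferases Gsta1 and Gsta2 averaged 0.19 and 0.04 with strata of both signs. None of these 7 was called, with adjusted p-values between 0.158 and 0.996.

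The list of Ahr with its chaperones and co-regulators gave no call. The median of its 14 genes was -0.04, and 1 was higher at an unadjusted p under 0.05. Ahr averaged -0.16 with an adjusted p of 0.459, and Ptges3, the p23 co-chaperone of Hsp90, averaged 0.08. Among 22 liver genes known to respond to dioxins in mice, the median was 0.15. Called were 3 of them, namely Htatip2, Slc46a3 and Cyb5a, against 0.0948% of all genes tested. This list was chosen with earlier results of these data known, so its calls are no independent support. At an unadjusted p under 0.05, 7 of the 22 were higher and 1 was lower, where 9.34% of all genes tested were higher and 2.36% lower.

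Among other xenobiotic programmes, the Nrf2 list and the CAR and PXR list held no called gene, where 0.0948% of all genes tested were called. The median over 25 Nrf2 targets was 0.07, with 6 higher and 1 lower at an unadjusted p under 0.05 and 9 higher in all 4 strata. Over all genes tested these shares were 9.34%, 2.36% and 12.7%. Osgin1, a growth inhibitor induced by oxidative stress, had the larger change of the 2 named members, 0.57 (adjusted p = 0.138). Among 28 CAR and PXR targets the median was 0.07 and 6 were higher at an unadjusted p under 0.05. Cyp3a41a, a steroid hydroxylase with near-identical copies, averaged 0.53 (adjusted p = 0.0838), with 0.89 in male HFD and 1.22 in male LFD livers but 0.14 in female HFD and -0.14 in female LFD livers. Abcc3, an exporter of conjugates, averaged 0.22 and reached 0.78 only in male LFD livers. The medians of 16 UDP-glucuronosyltransferases, 20 P450 redox partners and heme synthesis genes and 17 sulfotransferases were 0.02, 0.04 and -0.05, and each list held 1 called gene, namely Ugt1a9, Cyb5a and Sult2a2. The first of these medians was -0.01 after trimmed-mean scaling.

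**Figure D5:**
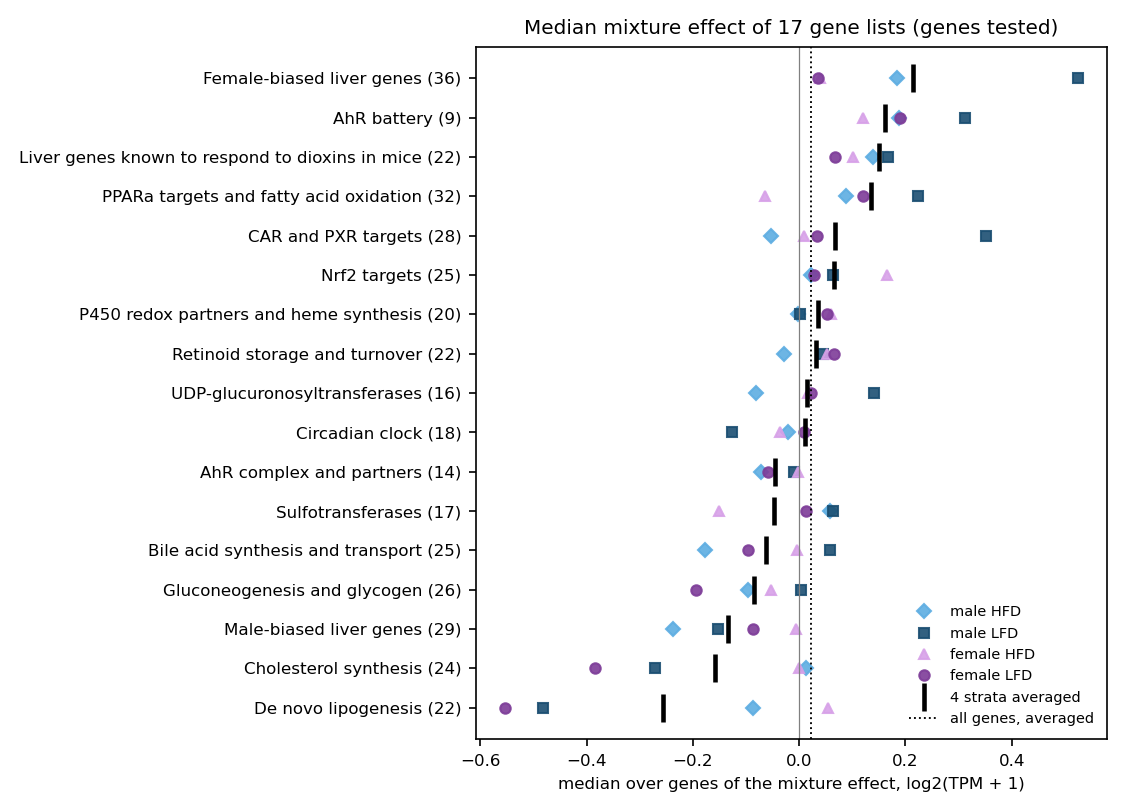
Median log2 change with the mixture over the tested genes of 17 lists (number tested in brackets), in each stratum (symbols) and averaged over the 4 (black bars), with the median of all genes as a dotted line. De novo lipogenesis and cholesterol synthesis lie nearer to it in the HFD strata than in the LFD strata, and female-biased genes lie to its right mainly in males.

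Lists of lipid metabolism held no called gene, and for lipogenesis and cholesterol synthesis the medians were nearer to 0 on the HFD than on the LFD in both sexes, a difference that was not tested. Over all genes tested, 2.36% were lower and 9.34% higher at an unadjusted p under 0.05. In all 4 strata, 4.82% were lower and 12.7% higher. De novo lipogenesis, 22 genes, had a median average change of -0.26, with 10 genes lower and 0 higher at an unadjusted p under 0.05. Its medians were -0.09 in male HFD and 0.05 in female HFD livers, against -0.48 in male LFD and -0.55 in female LFD livers, and 4 of the 22 were lower in all 4 strata. Acaca, acetyl-CoA carboxylase, averaged -0.46 (adjusted p = 0.325), with means of 26.2 ± 7.81 TPM with the mixture and 57.6 ± 35.3 TPM with vehicle in male LFD livers (SD, n = 6 each) and overlapping groups. Srebf1, the transcription factor that drives these genes, averaged -0.22 (adjusted p = 0.309) and was lower in all 4 strata. Cholesterol synthesis, 24 genes, had a median of -0.16, with 0.01 in male HFD and -0.00098 in female HFD livers, against -0.27 in male LFD and -0.38 in female LFD livers. Dhcr7, which acts at the end of the pathway, averaged -0.24 and was not called. Among 32 PPARa targets and genes of fatty acid oxidation the median was 0.13 and 10 were higher at an unadjusted p under 0.05, but only 2 were higher in all 4 strata. Decr1 and Acaa1a, enzymes of fatty acid oxidation, averaged 0.14 and 0.17.

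Gluconeogenesis and glycogen genes, 26 in all, had a median of -0.09. At an unadjusted p under 0.05, 5 were lower, where 2.36% of all genes tested were lower and 9.34% higher. Tat, the tyrosine aminotransferase, averaged -0.46 (adjusted p = 0.125) with -0.84 in male HFD, 0.07 in male LFD, -0.26 in female HFD and -0.83 in female LFD livers, and Pygl, liver glycogen phosphorylase, averaged -0.17. The 25 genes of bile acid synthesis and transport had a median of -0.06, with 5 lower and 1 higher. Slc10a1, the uptake carrier NTCP, averaged -0.15 (adjusted p = 0.232) and was lower in all 4 strata, and Abcg8, which pairs with Abcg5 in a sterol exporter, averaged -0.18. For 18 circadian clock genes the median was 0.01 (-0.01 after trimmed-mean scaling), with Per1 at -0.20 and Bhlhe41 at 0.15. For 22 genes of retinoid storage and turnover it was 0.03, with Rara at 0.14 and Dhrs3 at 0.13. None of these genes was called.

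The lists of genes with a sex bias in mouse liver had medians of opposite sign. At an unadjusted p under 0.05, 9.34% of all genes tested were higher and 2.36% lower. Over 36 female-biased genes the median average change was 0.21, with 12 higher and 1 lower at this threshold. By stratum it was 0.18 in male HFD and 0.53 in male LFD livers, against 0.04 in female HFD and 0.03 in female LFD livers. Sult2a2 was the 1 called member, and Cyp3a41a and Sult2a1, described with the other enzymes, belong to the list. Over 29 male-biased genes the median was -0.13, with 4 lower and 0 higher. Mup7, a major urinary protein with near-identical copies, averaged -0.92 (adjusted p = 0.295), and Elovl3, a fatty acid elongase, -0.46 (adjusted p = 0.25). On log2(TPM + 1) both were lower in all 4 strata. In TPM, the ratio of Elovl3 group means, mixture over vehicle, was 1.09 in male LFD livers.

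No gene was called lower, and the genes with the smallest p among those lower in all 4 strata had adjusted p-values between 0.125 and 0.215. Spata2l, the 1 gene called lower with array quality weights (limma, adjusted p = 0.0437), averaged -0.37 with an SE of 0.10 without them, with means of 15.4 ± 3.41 TPM with the mixture and 24.4 ± 4.85 TPM with vehicle in male HFD livers (SD, n = 6 each). Cps1, the entry enzyme of the urea cycle, averaged -0.34 with an SE of 0.09 (adjusted p = 0.128). Its groups were apart in male HFD livers, at 595 to 1004 TPM with the mixture and 1067 to 1350 TPM with vehicle, and overlapped elsewhere, as in male LFD livers with 1971 ± 498 TPM with the mixture and 2085 ± 594 TPM with vehicle (SD, n = 6 each). Ntrk2, the receptor of the neurotrophin Bdnf and a female-biased gene in mouse liver, was the most even of them, with -0.37, -0.24, -0.29 and -0.27 in male HFD, male LFD, female HFD and female LFD livers. The others were Rnf169, Tmc7, Slc38a4, Cep85l, Mgam, Zfand4, Tob2, Tsc22d3 and Ncam2, with averages between -0.40 for Tmc7 and -0.14 for Rnf169. On the upper side the uncalled genes with the smallest p included Rpl24, Zfp688, Pim1, Abhd11, Rpl6, Trappc2l and Rab24. Among these Pim1, a kinase downstream of cytokine and growth hormone signals, averaged 0.34 (adjusted p = 0.0728) with 0.10 in male LFD and 0.52 in female LFD livers.

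Markers of other liver cell types gave no call for the average. All 12 listed genes of Kupffer cells and macrophages were tested, with none at an unadjusted p under 0.05 and summed levels between 232 and 1556 TPM in exposed and between 304 and 1338 TPM in vehicle livers. For 8 genes of sinusoidal endothelial cells the sums ran between 142 and 256 TPM in exposed and between 143 and 314 TPM in vehicle livers, and for 10 genes of stellate cells and fibroblasts between 119 and 757 TPM in exposed and between 143 and 424 TPM in vehicle livers, with 1 gene higher at an unadjusted p under 0.05. The highest stellate sums, 757 and 424 TPM, were those of male HFD mixture replicate 6 and female LFD vehicle replicate 3, both among the libraries with muscle transcripts. In male HFD livers the stellate sum was 492 ± 164 TPM with the mixture and 299 ± 26.5 TPM with vehicle (SD, n = 6 each), and 5 of the 6 exposed libraries lay above all vehicle libraries. The summed cholangiocyte markers, which include Spp1 of the macrophage list, were at 257 ± 161 TPM with the mixture and 115 ± 22.1 TPM with vehicle there (SD, n = 6 each), and reached 532 TPM in an exposed and 140 TPM in a vehicle liver. Both sums overlapped between the groups in each stratum. Their part in the male HFD effects was not tested. Of the 7 cholangiocyte markers Krt7 and Cftr were too low to test, as were Cd3e, Cd8a, Ms4a1 and Ly6g among 8 markers of lymphocytes and neutrophils. Among 10 hepatocyte markers 4 were lower at an unadjusted p under 0.05, with a median change of -0.08. Over all genes tested 2.36% were lower and 9.34% higher. The part of the hepatocyte markers in the other results was not tested. Of 15 genes of skeletal muscle, 4 tested of adrenal cortex, 3 of adipocytes and 1 of pancreatic acinar cells, none was at an unadjusted p under 0.05.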

How the data were processed

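Liver poly(A) RNA of 48 C57BL/6J mice was measured in 8 groups of 6 that cross sex, diet and exposure. The submitters' processing notes name GRCm38 as the build and list STAR 2.5.2b, Trimmomatic 0.36, FastQC and DESeq2 without order or role. The sources used here give no read counter, annotation or strand setting. The values deposited by the authors are TPM for each library without pooling. Each column summed to 1000000 and holds no depth, so no counting interval was computed. The table listed 49315 genes, of which 14110 were at 0 throughout, 174 had a blank name and 191 shared a name. Blank and shared names were replaced by identifiers.

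Genes that reached 1 TPM in 6 or more libraries were tested with limma 3.58.1 in R 4.3.3, on log2(TPM + 1) with an intensity trend. The pseudocount of 1 understates the change of low genes. The model had a mean for each of 8 groups and 40 residual degrees of freedom. Contrasts were the mean of the 4 mixture effects, its value within each diet, its difference by diet and by sex, any difference among strata, and a test that each stratum changed the same way. Within each contrast the Benjamini-Hochberg adjustment was applied, with a threshold of 0.05. The p-values rest on the spread between libraries of a group, which the labels describe as replicates without naming a batch. Coordinates are 1-based GENCODE M21 positions on GRCm38, found for 15785 of the 15820 genes tested, and promoters are from RefSeq on GRCm38.p6.

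Named genes were all those called, the 8 higher and 12 lower uncalled genes with the smallest p among those moving the same way in all 4 strata, with a mean of at least 1 TPM and excluding predicted genes, the measured AhR battery, and 2 genes of every other list. A few genes that this rule names are not reported here. The members, lists and marker genes were chosen with earlier results of these data known. The ribosomal list and the genes named in the closing section beyond this rule were chosen after their values were seen. Alternatives were a trimmed-mean scaling of libraries (trimming 30% of the log ratios and 5% of the mean abundances from either end), no filter, a 5 TPM filter, a pseudocount of 0.1, array quality weights, the replicate number as a block, a robust prior, an additive model, each stratum left out, and 3 libraries with muscle transcripts left out, or 5, the last added after the data were seen. The fit was tested on simulated data.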

Additional observations from a re-analysis of the deposited data

Results flagged for a closer look

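The effect of the mixture on Cyp1a1 differed between the diets, by the test of the difference itself. The HFD minus LFD difference of log2 changes was -3.91 (limma, adjusted p = 1.65e-18), with 1.52 in male HFD and 1.18 in female HFD livers, against 5.60 in male LFD and 4.93 in female LFD livers. All 12 exposed HFD libraries lay below all 12 exposed LFD libraries.

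Single libraries stood far from the other 5 of their group in 7 of 120 groups of called genes examined, and chance alone marks about 1 group in 20. Pcp4l1 gave 2 of them, at 21.0 TPM in male LFD mixture replicate 6, where the next library was at 9.10 TPM, and at 28.6 TPM in male HFD mixture replicate 6, where the next was at 16.1 TPM. The second is the library with 25590 TPM of muscle transcripts. Without the 3 libraries with muscle transcripts Pcp4l1 was still called. Cyb5a reached 1020 TPM in male LFD mixture replicate 2, with the next at 833 TPM. In male LFD vehicle livers, replicate 3 was high for Slc46a3 at 63.7 TPM, with the next at 45.5 TPM, and for Neurl3 at 8.08 TPM, with the next at 6.00 TPM. Replicate 1 of that group was high for 2200002D01Rik at 12.1 TPM, with the next at 8.69 TPM. Htatip2 was low in female LFD vehicle replicate 1 at 23.8 TPM, with the next at 32.8 TPM.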

How the results depend on the processing

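Of the 15 called genes, 8 (Cyp1a2, Cyp1a1, Htatip2, Slc46a3, Cyb5a, Ugt1a9, Pcp4l1 and Neurl3) kept the call under the 10 alternatives that used all 4 strata, and the first 6 also with any 1 stratum left out; Pcp4l1 lost it without the male HFD stratum (limma, adjusted p = 0.0543) and Neurl3 without the male HFD, female HFD or female LFD stratum (0.111 to 0.454). For the average, 8 genes were called with trimmed-mean scaling (8 shared), 41 with array quality weights (14 shared, 1 of the 41, Spata2l, lower) and 9 without the male HFD stratum (7 shared), and between 10 and 22 under the other alternatives. Without the male LFD stratum 22 genes were called, 19 higher and 3 lower. On the HFD, 57 were called with array weights and 14 when the 3 libraries highest in muscle transcripts were left out, or 15 without 5, a setting added after the data were seen. On the LFD, 7 genes were called with the scaling and 8 with no filter. The difference by sex had 1 call with a pseudocount of 0.1 and 2 with the replicate block. Any difference among strata had 7 calls with array weights and 2 without the 3 or the 5 libraries. Array weights were lowest for male HFD mixture replicate 6 at 0.311. The causes were not tested. Uncalled genes that turned sign were Gsta1 (-0.040 with a pseudocount of 0.1), Gsta2 (-0.11 without the male LFD stratum) and Tiparp (0.0092 with a pseudocount of 0.1, 0.0016 without the 5 libraries, 0.017 without the female LFD stratum and 0.083 without the female HFD stratum). Replicate numbers did not pair the libraries: deviations from the group means correlated between -0.09 and 0.44 in 24 pairs, over 0.1 in 6, and 3 libraries correlated best with their own number. With the replicate number as a block 14 genes were called for the average. Depth limits cannot be given for TPM.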

Other observations

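Outside the genes named by rule, 5 genes not called with all libraries were called for the average when the 3 libraries highest in muscle transcripts were left out, and they are named after their values were seen: Tuba8, Ajuba, Coa3, Pepd and Spint2. With array quality weights and all libraries kept, Ajuba, Coa3, Pepd and Spint2 were called as well, with adjusted p-values between 0.00736 for Ajuba and 0.0467 for Coa3. Without 5 libraries only Tuba8 and Ajuba of these were called. Tuba8, an alpha tubulin, averaged 0.64 with an SE of 0.09 without the 3 libraries (limma, adjusted p = 7.81e-05). With all libraries it averaged 0.69 with an SE of 0.21 (adjusted p = 0.21). Without the 3 libraries its strata gave 0.72 in male HFD, 0.46 in male LFD, 0.59 in female HFD and 0.80 in female LFD livers. Its highest levels, 45.2 TPM in a male HFD mixture liver and 30.8 TPM in a female LFD vehicle liver, stood against medians of 2.59 and 2.89 TPM in those groups.

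Ugt1a10, too low for the filter and sharing its last exons with Ugt1a9, was called when no filter was used. It averaged 0.35 with an SE of 0.07 (limma, adjusted p = 0.0421), with 0.22 in male HFD, 0.63 in male LFD, 0.26 in female HFD and 0.27 in female LFD livers.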
